A study of Homo sapiens with 3 samples.

Results

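The ARID1B peaks at AUTS2 and at its paralogues FBRSL1 and FBRS were examined in HEK293FRT cells, which descend from HEK293, a line of human embryonic kidney. Chromatin immunoprecipitation followed by sequencing (ChIP-seq) of ARID1B had been made in 2 replicates, with 1 input sample that was not analysed here. The labels give no genotype and no treatment for any of the samples, and separate cultures are not stated for the replicates, whose differences may thus be technical. The members are all peaks in a 1.8 Mb window of chromosome 7 that reaches from 498 kb before to 106 kb after AUTS2, and all peaks within 100 kb of the annotated bodies of FBRSL1 and FBRS, on the human genome build hg38. They came to 11 of 1792 peaks in replicate 1 and 11 of 1820 peaks in replicate 2, and all 22 lay at AUTS2. AUTS2 had been selected on the number of peaks of both lists nearest to it, so that number, the density of the peaks and their sharing are a description with no test.

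ARID1B belongs to the BAF (SWI/SNF) remodelling complexes, in which it contacts DNA while the complex slides or evicts nucleosomes at promoters and enhancers, and loss of 1 copy of its gene causes Coffin-Siris syndrome. AUTS2, FBRSL1 and FBRS encode related nuclear proteins that join variant Polycomb complexes, in which they bind the subunits PCGF3 or PCGF5. AUTS2 is known to bring casein kinase 2 and the acetyltransferase EP300 to such complexes, and its disruption causes a neurodevelopmental syndrome with intellectual disability. Its exons are unevenly spread, with very long introns towards the start of the gene and a compact block of exons towards its end.

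No peak was called at the start of any family gene with an annotated start window. These windows run from 250 bp before to 50 bp after an annotated transcription start, in RefSeq sequence of GRCh38.p14, the assembly that hg38 names. They are shown for AUTS2 (chr7:69598225-69598524, plus strand) and for the outer of the listed starts of FBRSL1 (chr12:132489901-132490200, plus strand) as the family starts that hold no peak. The window of MYL11 (chr16:30370684-30370983, plus strand) is shown beside them because it lies under the peaks nearest to FBRS. Each runs 5′ to 3′, and capitals mark GC boxes, the letters GGGCGG on either strand, which the transcription factor SP1 is known to bind.
AUTS2: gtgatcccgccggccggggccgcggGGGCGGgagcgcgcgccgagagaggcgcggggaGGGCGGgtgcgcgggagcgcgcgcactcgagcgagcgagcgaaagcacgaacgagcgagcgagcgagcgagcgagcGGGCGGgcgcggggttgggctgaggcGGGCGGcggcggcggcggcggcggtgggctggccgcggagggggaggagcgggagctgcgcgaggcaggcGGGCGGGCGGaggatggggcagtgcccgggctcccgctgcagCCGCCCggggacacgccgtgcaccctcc
FBRSL1: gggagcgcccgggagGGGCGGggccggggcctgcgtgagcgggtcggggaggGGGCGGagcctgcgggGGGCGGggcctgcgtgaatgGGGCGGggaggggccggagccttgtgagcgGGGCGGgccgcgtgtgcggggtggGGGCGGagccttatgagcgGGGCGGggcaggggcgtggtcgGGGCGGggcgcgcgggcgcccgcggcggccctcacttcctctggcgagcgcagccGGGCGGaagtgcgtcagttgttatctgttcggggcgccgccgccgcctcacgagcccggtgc
MYL11: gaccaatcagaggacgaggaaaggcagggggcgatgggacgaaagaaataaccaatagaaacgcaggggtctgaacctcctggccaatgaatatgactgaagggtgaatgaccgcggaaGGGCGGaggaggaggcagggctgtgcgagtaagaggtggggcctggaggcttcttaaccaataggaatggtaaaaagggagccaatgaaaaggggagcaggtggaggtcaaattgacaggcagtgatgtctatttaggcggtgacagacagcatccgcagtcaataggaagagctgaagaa
The AUTS2 window held 7 GC boxes, of which 2 overlapped each other, and 82.3% of its bases were G or C. The FBRSL1 window held 9 GC boxes at 80.7% G or C, the MYL11 window 1 at 52.7%, and the median of all windows was 58.7% G or C. Of the GC boxes, 1 in the AUTS2 window and 2 in the FBRSL1 window overlapped a match of another motif searched. Those motifs were TGANTCA (the AP-1 motif), GGAATG (TEAD), CCCTC (part of the CTCF motif) and CANNTG (E-box), each on both strands. Neither TGANTCA nor GGAATG occurred in the AUTS2 window or in this FBRSL1 window, and GGAATG occurred 1 time in the MYL11 window. Most windows lack either motif, since TGANTCA occurred in 7.71% and GGAATG in 14.03% of all 35116 windows. Nothing is thus read from their absence. At least 1 GC box was present in 133 of the 179 start windows in the table that a peak pair of both replicates overlapped (74.3%), and in 45.0% of all 35116 windows. In the 179 windows and in all windows, TGANTCA occurred in 5.03% and 7.71%, and GGAATG in 11.2% and 14.03%. For CCCTC these shares were 74.3% and 71.2%, and for CANNTG 62.6% and 68.7%. The other listed start window of FBRSL1 held 1 GC box at 65% G or C. The family windows without a peak thus hold GC boxes as well. The letters of the peaks at AUTS2 were not used here.

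FBRSL1 and FBRS had no peak within 100 kb in the lists as read here, which may not hold every row. Most genes lack one: 11.8% of all protein-coding genes had overlapping peaks of both lists within 100 kb. FBRSL1 (chr12:132490151-132585188, 95.04 kb) had 0 peaks within 100 kb in replicate 1 and 0 in replicate 2. The nearest peak of both lists lay 7575 kb away, outside annotated genes, at chr12:124914667-124914997 in replicate 2, where it scored 131, and at chr12:124914722-124914918 in replicate 1, where it scored 101. FBRS (chr16:30658431-30670810, 12.4 kb), which lies between PRR14 and SRCAP, also had 0 peaks within 100 kb in either list. Its nearest peak lay 287 kb away at MYL11, a myosin light chain gene, at chr16:30370568-30371231 in replicate 1 and chr16:30370548-30371256 in replicate 2. That peak scored 255 in replicate 1 and 228 in replicate 2. A score is the whole number that the authors gave each peak, on an unstated scale, and it serves here to order the peaks of a list. Both flanking protein-coding genes of each paralogue lie close by, PRR14 and SRCAP 2.02 and 28.4 kb from FBRS, and MUC8 and LRCOL1 15.6 and 18.0 kb from FBRSL1. The protein-coding neighbours of AUTS2 lie farther off, SPDYE21 at 2309 kb and GALNT17 at 339 kb. Non-coding genes were left out of these distances, and the long non-coding RNA gene CT66 lies close before the AUTS2 start.

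AUTS2 (chr7:69598475-70793506, 1195 kb, plus strand) held 9 peaks of replicate 1 and 8 of replicate 2 inside its body. Another 2 peaks of replicate 1 and 3 of replicate 2 lay in the upstream flank, and 0 lay in the part of the window downstream of the gene. The peak nearest to the annotated start was 204 kb inside the gene in replicate 1 and 220 kb inside it in replicate 2. Peaks that overlapped by at least 1 bp between the lists were called shared and joined into regions, which gave 8 regions in the window and 6 inside AUTS2. The regions lay in the upstream flank and in the first 60% of the gene.

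**Figure D1:**
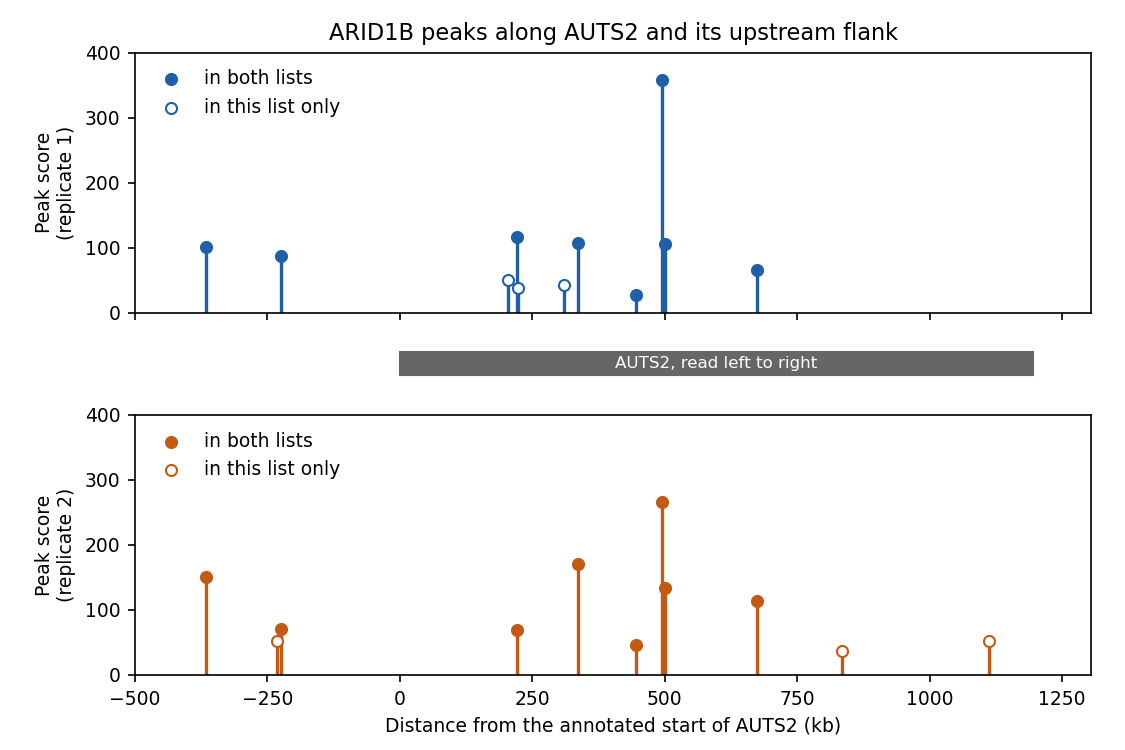
Position of each peak in kb from the annotated start of AUTS2 (x axis) against the authors' peak score (y axis) for replicate 1 (top) and replicate 2 (bottom); filled points are peaks found in both lists and open points peaks of that list only. The tallest peak in both lists stands 494 kb inside the gene, with scores of 358 and 266, and the open points are all at 52 or lower.

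The upstream flank held 2 shared regions. The farther was 366 kb before the start of AUTS2 at chr7:69232636-69233082, and it scored 101 in replicate 1 and 151 in replicate 2. The nearer was 225 kb before the start at chr7:69373591-69373968, and it scored 87 in replicate 1 and 70 in replicate 2. Neither overlapped any annotated gene. The nearest were long non-coding RNA genes, LOC105375345 at 49.9 kb from the farther region and LOC124901667 at 13.8 kb from the nearer.

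Inside AUTS2 the regions began 18.4% of the way along the gene. The region at chr7:69818726-69819027, 220 kb from the start, scored 116 in replicate 1 and 69 in replicate 2. The next, at chr7:69934526-69934926, 336 kb from the start and 28.1% along the gene, scored 107 in replicate 1 and 170 in replicate 2. The weakest, at chr7:70044173-70044506, 446 kb from the start and 37.3% along, scored 27 in replicate 1 and 46 in replicate 2. These 3 regions therefore include the lowest shared region of the window in both lists and a pair whose order turned round between the lists.

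The strongest region lay at chr7:70092310-70092842, 494 kb from the start and 41.3% along the gene, with a score of 358 in replicate 1 and 266 in replicate 2. A companion 5.70 kb farther on, at chr7:70098021-70098539 and 41.8% along, scored 105 in replicate 1 and 134 in replicate 2. The last shared region, at chr7:70271614-70271947, 673 kb from the start and 56.3% along, scored 65 in replicate 1 and 114 in replicate 2. The first 20% of the gene's length held 1 region, the stretch between 20% and 40% held 2, that between 40% and 60% held 3, and the remainder held 0. All 6 lay at least 220 kb from the nearer end of AUTS2, and none overlapped another annotated gene. Exons and introns were not separated here.

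The regions were unevenly spaced. Neighbouring centres in the window were 5.70 to 445 kb apart, with a median of 116 kb over 7 gaps. The widest gap, 445 kb, spans the start of the gene, between the nearer upstream region and the first region inside. Of the 7 gaps, 1 was at most 10 kb. Over all 1288 gaps between neighbouring shared regions of the same chromosome the median was 821 kb, and 86 of these (6.68%) were at most 10 kb. The density was 4.44 regions per Mb in the window and 5.02 per Mb inside AUTS2, against 0.433 per Mb over the annotated chromosome spans outside the window. The number of regions chose the locus, so nothing is read from this difference.

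In the lists as read here, which may not hold every row, the peaks at AUTS2 lay far from other peaks of the chromosome. The outermost peak inside the window on the upstream side, 366 kb before the gene, scored 101 in replicate 1 and 151 in replicate 2. The nearest peak outside the window on that side lay 16.0 Mb farther up in replicate 1 (score 95) and 13.2 Mb farther up in replicate 2 (score 75, at SUMF2), a stretch that includes the centromere. On the downstream side the outermost peak inside the window scored 65 in replicate 1 and 52 in replicate 2. The next peak beyond it lay 4.72 Mb on in replicate 1 (score 86, at CASTOR2) and 3.01 Mb on in replicate 2 (score 39, at STX1A). GALNT17, the next protein-coding gene and an enzyme gene of protein glycosylation, therefore had no peak in either list as read here.

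The score ranks of the AUTS2 regions ran from near the bottom to near the top of the lists. The strongest region outscored 97.6% of replicate 1 peaks and 94.1% of replicate 2 peaks, which put it at rank 43 of 1792 and rank 107 of 1820. Among all 1321 overlapping pairs of peaks, ordered by the lower of the percentiles in the lists, it stood 65th, and the next of the window stood 396th. The weakest region outscored 4.30% of replicate 1 peaks and 22.0% of replicate 2 peaks. The 6 other regions outscored 40.8% to 71.7% of replicate 1 peaks and 44.3% to 84.6% of replicate 2 peaks. Over the 8 regions the median percentile was 67.2% in replicate 1 and 74.3% in replicate 2, against 61.0% and 61.4% for the other pairs. Over all 11 peaks of the window, shared or not, it was 59.4% in replicate 1 and 45.4% in replicate 2, and 6 of the 11 in replicate 1 and 5 of the 11 in replicate 2 reached their list's median score.

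**Figure D2:**
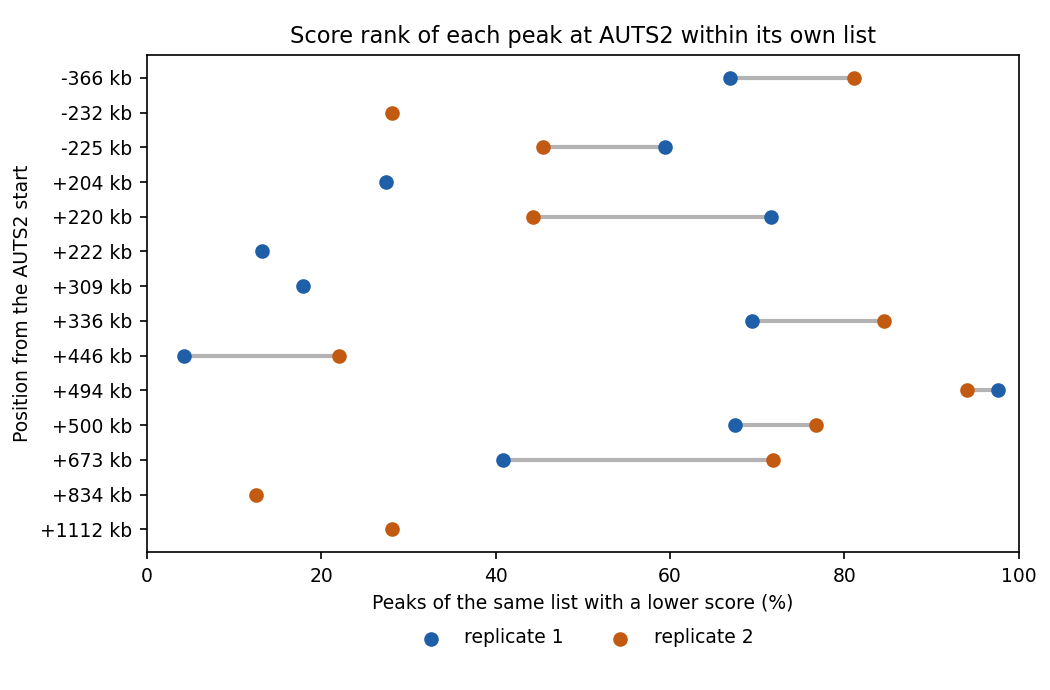
Share of peaks of the same list that score lower (x axis, %) for each place with a peak in the AUTS2 window (y axis, position in kb from the gene's start); blue points are replicate 1, orange points replicate 2, and grey bars join peaks that overlap. The region at 494 kb is above 94% in both lists, the region at 673 kb has the widest bar, at 40.8% and 71.8%, and the 6 peaks of 1 list alone lie below 30%.

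Replicate agreement at AUTS2 was near that of the lists as a whole. In replicate 1, 8 of 11 peaks were shared (72.7%, exact Clopper-Pearson 95% interval 39.0 to 94.0), and in replicate 2, 8 of 11 (72.7%, 39.0 to 94.0). Over the whole lists 73.5% of replicate 1 peaks and 72.4% of replicate 2 peaks were shared. These intervals cover counting error only, and with 11 peaks they are wide. Both rest on the same 8 overlapping pairs, and they treat neighbouring peaks as independent. 

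The shared peaks also coincided closely in position. Their centres differed by 4 to 70 bp, with a median of 13.8 bp over the 8 pairs, against a median of 24.5 bp over the 1313 other pairs. The overlap covered 53.2% to 97.7% of the joint extent of a pair, with a median of 80.3% against 79.5% for the other pairs. The strongest region had the most complete overlap, 521 of 533 bp, with widths of 526 bp in replicate 1 and 528 bp in replicate 2. The upstream region nearer to the gene had the least, because its peak was 378 bp wide in replicate 1 and 201 bp in replicate 2.

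The scores were less exact than the positions. Within a pair the larger score was 1.24 to 1.75 times the smaller (median 1.54), against a median of 1.40 for the other pairs. In 5 of 8 pairs replicate 2 had the higher score, as did 50.8% of the other pairs. Of the 8 shared regions, that at 494 kb was the highest and that at 446 kb the lowest in both lists. The region at 220 kb was the second highest in replicate 1, at 116, and the seventh in replicate 2, at 69. The scores of 116, 107, 105, 101 and 87 that follow the highest in replicate 1 lie closer together than the replicates do. The full order of these 5 regions is thus not resolved. The region scoring 87 was below those scoring 107, 105 and 101 in replicate 2 as well. The Spearman rho of the scores was 0.595 over the 8 regions and 0.703 over the other pairs. The regions share their libraries, so these are descriptions.

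**Figure D3:**
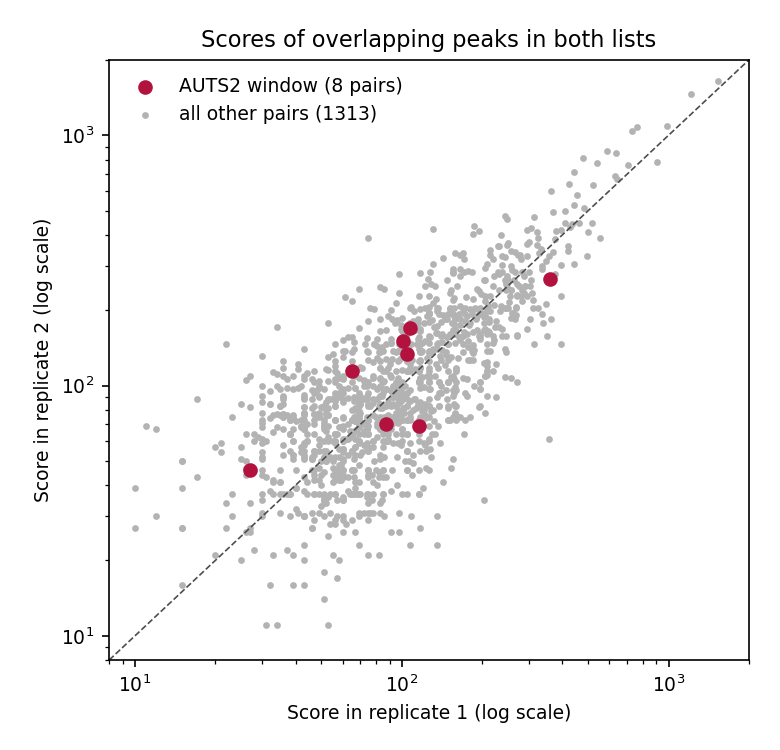
Score in replicate 1 (x axis) against score in replicate 2 (y axis), both on log scales, for overlapping peaks of both lists; red points are the 8 pairs of the AUTS2 window, grey points the 1313 other pairs, and the dashed line marks equal scores. The red points lie within the grey cloud, from 27 and 46 at the lower left to 358 and 266 at the upper right, with 5 of 8 above the line.

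The remaining 6 peaks were called in a single list, with scores below the median of that list. In replicate 1 they lay inside AUTS2, at chr7:69802423-69802618 (score 51), chr7:69820850-69821048 (score 38) and chr7:69907805-69908042 (score 43). In replicate 2 they lay upstream at chr7:69365892-69366104 (score 52) and in the gene at chr7:70432646-70432842 (score 37) and chr7:70710128-70710420 (score 52). Their widths were 196 to 238 bp in replicate 1 and 197 to 293 bp in replicate 2.

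Some of these stood close to a peak of the other replicate without touching it, and others stood far from any. The peak scoring 38 was 1.85 kb from a replicate 2 peak, the region at 220 kb, and the upstream peak scoring 52 was 7.49 kb from a replicate 1 peak, the region 225 kb before the start. In replicate 1 the peaks scoring 51 and 43 were 16.1 and 26.5 kb from the nearest replicate 2 peak. In replicate 2 the peak scoring 37 was 161 kb from the nearest replicate 1 peak. The peak at 1112 kb, which was 93.04% along AUTS2 and the last in the gene, had its nearest replicate 1 peak 438 kb away. Over the whole lists, 50.2% of the peaks in the range of these scores were shared, which was 38 to 51 in replicate 1 and 37 to 52 in replicate 2.

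AUTS2 was among the protein-coding genes with the most shared regions inside. Of 19862 such genes 557 (2.80%) held at least 1, and 7 held 6 or more. ZNF608, a zinc-finger gene, and GMDS, an enzyme gene of fucose metabolism, held 9 each, and NKAIN2, a membrane protein gene, held 7. The mitochondrial carrier gene SLC25A21, the DNA repair gene RAD51B, the synaptic scaffold gene FRMPD4 and AUTS2 held 6 each. Ordered by count and then by regions per Mb, AUTS2 stood 7th, at 5.02 per Mb, the lowest density of these 7 genes. ZNF608 had 80.4, GMDS 14.5, NKAIN2 6.85, SLC25A21 12.1, RAD51B 6.95 and FRMPD4 6.65 per Mb.

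The genes closest to AUTS2 in length held no shared region. The 5 genes closest to AUTS2 in length, 1174 to 1214 kb, were the axon guidance receptor gene DCC, the proteoglycan gene GPC6, IL1RAPL2, CSMD3 and the cadherin gene CDH13, and each held 0 shared regions. Over the 68 other protein-coding genes of at least 1 Mb there were 37 regions, or 0.391 per Mb, and 49 of these genes held none. NKAIN2 was the only gene of at least 1 Mb with more than AUTS2, and PDE4D, 1553 kb long, held 5. Since AUTS2 was chosen for its regions, its place in these orders is a description.

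**Figure D4:**
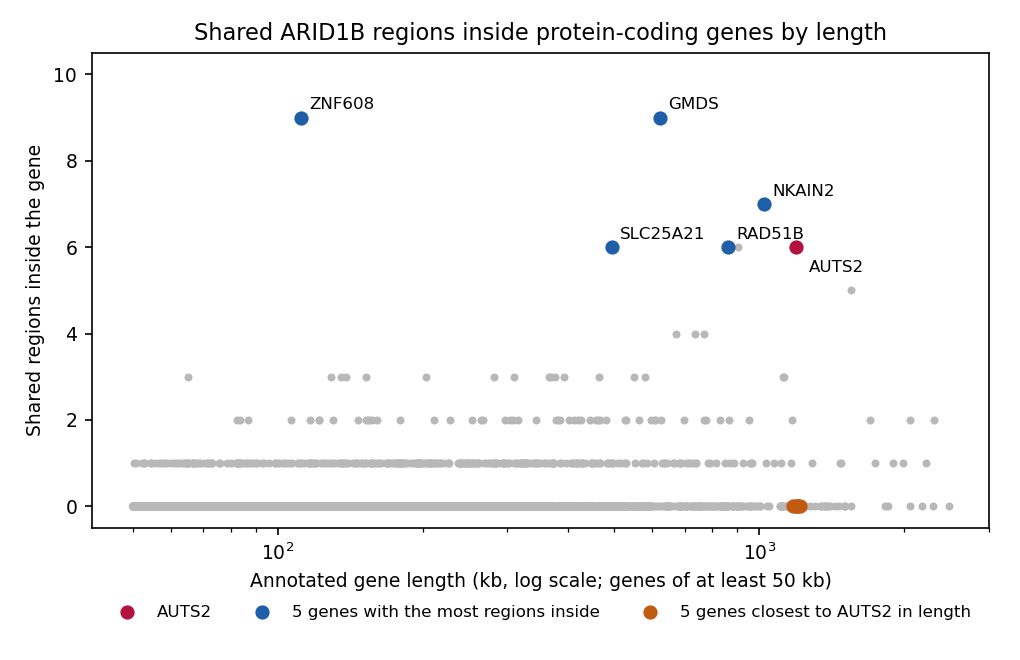
Number of shared regions inside each protein-coding gene (y axis) against its annotated length (x axis, kb, log scale, genes of at least 50 kb); AUTS2 is red, the 5 genes with the most regions are blue, the 5 genes closest to AUTS2 in length are orange and all other genes are grey. AUTS2 stands at 6 regions, and the 5 genes of like length lie on top of each other at 0.

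The known partners of the family in its Polycomb complexes were looked up too, and with 10 genes their shares are a description. The list held PCGF3 and PCGF5, the core ubiquitin ligase genes RING1 and RNF2, the adaptor genes RYBP and YAF2, the casein kinase 2 genes CSNK2A1, CSNK2A2 and CSNK2B, and EP300. Of these 10 genes 1 (10%) had a shared region within 100 kb of its body, against 11.8% of all protein-coding genes. It was CSNK2A2, with a region 28.2 kb away at chr16:58129348-58129684 that scored 12 in replicate 1 and 30 in replicate 2, near the bottom of both lists. Within 10 kb 0 of the 10 had a region (4.16% of all protein-coding genes did), and within 500 kb 6 had (37.2% of all). The 10 genes had a median length of 67.8 kb, against 24.5 kb for all protein-coding genes, and length was not corrected for.

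A list of 20 other neurodevelopmental genes was drawn from general knowledge, with earlier results of these data known, so its shares are a description. Of the 20, 7 (35%) had a shared region within 100 kb, against the same 11.8%. Within 10 kb 6 had one (30%), against 4.16% of all protein-coding genes, and within 500 kb 10 had one (50%), against 37.2%. These genes are long, with a median of 271 kb against 24.5 kb for all protein-coding genes, and length was not corrected for. FOXP2, the transcription factor gene linked to speech, had 3, of which 2 lay inside it, at chr7:114530067-114530531 (scores 257 and 107 in replicates 1 and 2) and chr7:114653335-114653962 (336 and 300). CNTNAP2, a neuronal adhesion gene, had 2 inside it, at chr7:146654049-146654472 (232 and 242) and chr7:146655863-146656351 (443 and 528). The scores of the second of these exceeded the 358 and 266 of the strongest AUTS2 region. The transcription factor genes FOXP1 (74 and 88), MEIS2 (149 and 73), TCF4 (65 and 73) and ZEB2 (158 and 83) had 1 region inside each, and ANKRD11, a chromatin regulator gene, had 1 outside it, 74.8 kb away (69 and 48). None of the 20 held as many regions inside as AUTS2, which was itself chosen for its number of peaks, so nothing is read from this. The genes without a region within 100 kb included ARID1B itself and MEF2C.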

How the data were processed

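ARID1B ChIP-seq peak lists of 2 replicates were used, without the input. The submitters' processing notes name MACS2 2.1.2, Bowtie2 2.3.4.1, bcl2fastq 2.20.0.422 and the build hg38. What settings, peak threshold, antibody and control were used, and how duplicates were treated, is not given in the sources used here. The authors deposited 1 list per replicate with a whole-number score per peak of unstated scale. Scores were ranked within each list and compared between lists only for overlapping peaks. The lists carry no read counts, so depth is unknown.

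Starts were converted to count from 1. Genes came from a RefSeq table of GRCh38.p14, without 718 genes of other sequences that share a chromosome name. Strand came from the RefSeq start windows, in which AUTS2 and FBRSL1 were matched. Overlap of at least 1 bp made peaks shared, and connected peaks made 1 region. The members and lists were chosen with earlier results of these data known. The genes named were all members, the 5 genes with the most regions inside and the 5 closest to AUTS2 in length. Neighbouring genes were named too, as were listed genes with a region within 100 kb, at most 8. FRMPD4, PDE4D, CT66, MYL11 and listed genes without a region were named after their values were seen. No test was made, because 2 samples of 1 group allow none between groups. The overlap step was tested on simulated peaks that could each meet only a single partner, so the joining of connected peaks was not tested. Python 3.11 and scipy 1.17.1 were used.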

Additional observations from a re-analysis of the deposited data

How the results depend on the processing

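Across 29 alternative results, 23 stayed within the limits set for a change and 6 moved. Counts within the limits could still differ, and some results could not move. FBRSL1 and FBRS had 0 peaks within 100 kb, so the settings of 50 kb and of peaks reaching the median score could only give 0. The tally is thus no measure of stability. With the AUTS2 body and 100 kb on each side in place of the window, 6 shared regions were left instead of 8, without the upstream ones. Within 500 kb in place of 100 kb, 10 neurodevelopmental genes had a region instead of 7. Requiring 50% reciprocal overlap or centres within 200 bp left 8 shared regions in the AUTS2 window and 6 inside the gene. With only peaks that reach their list's median score, 4 regions were left in the window and 3 inside AUTS2. The median percentile of the kept peaks was then 68.4% in replicate 1 and 81.2% in replicate 2. That filter removes the low percentiles, so nothing is read from the rise. Leaving out a replicate, so that every peak of the other counts, gave 11 peaks in the window either way and 8 to 9 inside AUTS2. Within 500 kb FBRS had 2 peaks, those at MYL11, and FBRSL1 still 0. Of the 10 Polycomb partner genes, 0 had a region within 10 kb and 6 within 500 kb, against 4.16% and 37.2% of all protein-coding genes. No paired analysis was possible because the peak lists belong to 1 group. The lists hold no read counts, so what depth limits at FBRSL1 and FBRS is unknown.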
